A study of Mus musculus with 7 samples.

Results

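Glycolysis turns glucose into pyruvate in the cytosol and yields ATP without oxygen, and lactate dehydrogenase then interconverts pyruvate and lactate. The retinal pigment epithelium (RPE) is known for passing glucose from the choroidal blood to the photoreceptors and for taking up the lactate that the photoreceptors release, so its own glycolysis bears on how much glucose reaches them. Hexokinases trap glucose in the cell, phosphofructokinases catalyze the committed step, aldolase splits the sugar, phosphoglycerate kinase and pyruvate kinase make ATP, and the A and B subunits of lactate dehydrogenase favor lactate production and lactate use. The genes described here are 10 of these enzymes, chosen by name: Hk1, Hk2, Pfkl, Pfkm, Pfkp, Aldoa, Pgk1, Pkm, Ldha and Ldhb. All 10 were found among the 52740 Ensembl identifiers of the count table, and all 10 were among the 16990 genes with enough counts to be tested.

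RNA was sequenced from RPE of 4 wild type (WT) mice, F1, F2 and F3, which are females, and M1, a male, and of 3 LC3b-/- mice, F1 and F3, which are females, and M, a male, all 24 months old and 1 library per mouse. LC3b is attached to autophagosomes and to phagosomes that hold shed photoreceptor outer segments, and the question was which RPE transcripts differ in mice without it. The labels write the knockout genotype as LCb-/-. The methods give B6;129P2-Map1Lc3btm1Mrab/J as the knockout strain, which lacks the gene in the whole body, and C57BL6/J as WT, so strain background and the targeted gene cannot be told apart. RPE sheets were detached with trypsin after cornea, ciliary body, lens and neural retina had been taken away, and other eye cells that stay attached enter the libraries. A group number in the mouse names, of unstated meaning, was never shared by mice of both genotypes. The targeted gene followed the labels, with 2778 to 4444 Map1lc3b counts in WT and 168 to 332 in LC3b-/-. Each library holds 24495952 to 35616134 counts, of which the 10 enzymes took 0.365% to 0.641%. Levels are given as CPM, the counts of a gene scaled to the library's total, on a scale adjusted between libraries by TMM, and p-values measure only the spread between these 7 mice. Values of single mice follow the order F1, F2, F3, M1 for WT and F1, F3, M for LC3b-/-.

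The libraries did not hold equal amounts of the cell types that surround the RPE, and these values stand beside the enzyme levels. The 12 RPE markers, among them Rpe65 and Rlbp1, summed to 31499 to 48455 CPM in WT and 14477 to 29066 CPM in LC3b-/-, without overlap, and fewer RPE cells and less RNA per cell cannot be told apart here. The 15 photoreceptor markers summed to 277 CPM in WT M1, 2516 in WT F1, 9610 in WT F3 and 22317 in WT F2, and to 99.2 CPM in LC3b-/- F1, 3311 in LC3b-/- M and 7631 in LC3b-/- F3. The 11 markers of ocular surface epithelium, mostly keratins, summed to 6.78 to 2148 CPM in WT and to 2350 CPM in LC3b-/- M, 4977 in LC3b-/- F3 and 18832 in LC3b-/- F1. The 9 endothelial markers summed to 213 to 693 CPM in WT and 837 to 893 CPM in LC3b-/-. Lower in every LC3b-/- library than in any WT library, Müller glia markers summed to 1830 to 2209.5 CPM in WT and 1410 to 1677 CPM in LC3b-/-, melanocyte markers to 200.1 to 335 and 173 to 198 CPM, and lens markers to 9.65 to 14.8 and 8.15 to 9.48 CPM, with the lens gene Cryba1 at 0 counts throughout. Single genes did not all follow these sums. Rgr and Ttr had the highest means of the RPE markers, 11559 and 13571 CPM in WT. Rgr, Lrat, Rdh5 and Rrh were lower in LC3b-/- without overlap. Rpe65, Rlbp1, Ttr, Dct, Tyrp1, Pmel and Mlana were fitted lower, but their groups overlapped. Best1 was fitted higher, at a log2 fold change of 0.19. Among Müller glia markers, Car14, Gfap, Slc1a3 and Kcnj10 had log2 fold changes of -0.88, -2.55, -0.51 and -0.37. Those of Crym, Aqp4, Abca8a and Dkk3 were 1.52, 0.89, 0.51 and 0.19. Car14 averaged 1123 CPM in WT and 609 in LC3b-/-. The melanocyte marker Kit was at 1.45, while Sox10, Mlana, Ednrb and Mc1r were fitted lower. Bfsp2 made up most of the lens sum, with means of 9.54 and 7.24 CPM. The sums overlapped for fibroblasts (691 to 1846 CPM in WT and 1341 to 2179 in LC3b-/-), macrophages and microglia (391 to 573 and 287 to 529), erythrocytes (182 to 542 and 216 to 662), skeletal muscle (15.9 to 53.1 and 19.9 to 59.2) and neutrophils (3.56 to 10.1 and 4.70 to 10.99). None of these markers was differentially expressed in edgeR's quasi-likelihood test, that is, 0 passed an adjusted p of 0.05 with a fold change of at least 1.5. Only 0.235% of all genes tested were called, so this count cannot show that the cell mixture was alike. The ocular surface and endothelial sums were higher in every LC3b-/- library than in any WT library.

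Several of these enzymes have processed pseudogenes, copies of the mRNA pasted back into the genome, and counts can be shared between a gene and a copy whose sequence a read of 100 bases cannot tell apart. Of all 100-base windows along the main transcript, 67.0% of Pgk1, 9.66% of Pkm, 7.41% of Ldhb and 0.940% of Ldha also occur in another annotated gene, and no window of Hk1, Hk2, Pfkl, Pfkm or Pfkp does. For Aldoa the value is 85.3%, all of it shared with Gm57854, a gene model that overlaps Aldoa on the same strand and held 1 to 20 counts per library. A stretch of 100 bases of the coding sequence, starting 100 bases after the start of the start codon, is shown for 3 enzymes beside the matching stretch of a copy, 5′ to 3′ on the coding strand, with capitals at the bases that differ, because it shows how little separates the genes. The genes' stretches lie on GRCm39 in a pair of exons each, at chr9:59572596-59572649 and chr9:59573146-59573191 for Pkm (plus strand), chr6:142451138-142451166 and chr6:142447113-142447183 for Ldhb (minus strand) and chr7:46497144-46497169 and chr7:46498397-46498470 for Ldha (plus strand). The copies, each in a single run, lie at chr5:22930967-22931066 (Gm6560, minus strand), chr19:21914844-21914943 (Ldhb-ps, plus strand) and chr14:93432932-93433031 (Gm9247, minus strand).
Pkm: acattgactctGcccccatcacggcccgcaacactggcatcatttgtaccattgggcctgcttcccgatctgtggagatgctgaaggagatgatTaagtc
Gm6560: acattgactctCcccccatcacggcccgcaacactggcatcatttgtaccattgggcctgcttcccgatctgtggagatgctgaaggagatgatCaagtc
Ldhb: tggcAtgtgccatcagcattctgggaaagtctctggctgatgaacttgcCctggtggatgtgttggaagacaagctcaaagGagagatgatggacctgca
Ldhb-ps: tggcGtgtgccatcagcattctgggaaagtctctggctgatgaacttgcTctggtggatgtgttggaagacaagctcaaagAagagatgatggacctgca
Ldha: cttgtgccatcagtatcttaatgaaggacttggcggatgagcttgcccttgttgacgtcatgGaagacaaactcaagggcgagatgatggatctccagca
Gm9247: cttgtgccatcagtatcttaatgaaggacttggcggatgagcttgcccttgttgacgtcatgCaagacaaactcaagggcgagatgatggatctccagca

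The copies took few of the deposited counts. Pgk1-rs7, which is identical to Pgk1 over 1255 bases, and Gm5537, identical over 1252 bases, had 0 counts in all 7 libraries, and the other Pgk1 copies had at most 5. Gm6560 had 4 to 29 counts beside 18801 to 41059 for Pkm, and Ldhb-ps had 5 to 21 beside 11056 to 20293 for Ldhb. None of the 5 Ldha pseudogenes exceeded 3 counts in a library. A larger number, 109 to 852 counts, was assigned to Gm49759, an unproven transcript model inside the Pkm locus. Because salmon assigns ambiguous reads by its own model, the split between gene and copy is an estimate, and it is least certain for Pgk1 and Aldoa. Adding the counts of the copies to their enzymes left 0 of 10 enzymes differentially expressed and changed the direction of none.

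The levels of the enzymes per kilobase of transcript covered a wide range. In WT, Aldoa was the most abundant at 1402 ± 140 CPM per kilobase (mean ± SD, n = 4), followed by Pkm (495.5 ± 109), Ldhb (430.5 ± 51.2), Pgk1 (273 ± 40.1), Ldha (135 ± 56.3), Pfkl (78.5 ± 13.9), Hk1 (62.6 ± 18.6), Pfkp (40.9 ± 6.13), Pfkm (23.5 ± 3.43) and Hk2 (9.59 ± 7.70). The ranges of neighbors in this order did not meet over the WT mice, except those of Pkm and Ldhb, of Pfkl and Hk1, and of Pfkm and Hk2. The order of the means was the same in LC3b-/-, from 1031 ± 167 for Aldoa to 19.1 ± 5.38 for Hk2 (n = 3), and there the ranges of Pgk1 (208 ± 40.2) and Ldha (174 ± 33.7) and those of Hk1 and Pfkp met as well. The spread between mice differed between enzymes: the coefficient of variation in WT was 10.01% for Aldoa and 11.9% for Ldhb, but 41.6% for Ldha and 80.3% for Hk2.

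None of the 10 enzymes was differentially expressed between LC3b-/- and WT RPE in edgeR's quasi-likelihood test, and 0 had an unadjusted p under 0.05. Over all 16990 genes tested, 0.235% (40 genes) were called and 24.1% had an unadjusted p under 0.05. DESeq2 and limma's voom also called 0 of the 10, each with 3 at an unadjusted p under 0.05. The fitted level was lower in LC3b-/- for 8 enzymes and higher for 2, Hk2 and Ldha, with a median log2 fold change of -0.12 beside 0.01 over all genes. Levels of LC3b-/- and WT did not overlap for 1 enzyme, Aldoa, while 22.3% of all genes tested had groups that did not overlap. For Pfkl, Pfkm and Pfkp the 95% interval of the fold change lay inside a 1.5-fold change in both directions, and for the other 7 it reached past 1.5-fold in at least 1 direction. The plots of the levels and of the fold changes show these values.

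**Figure D1:**
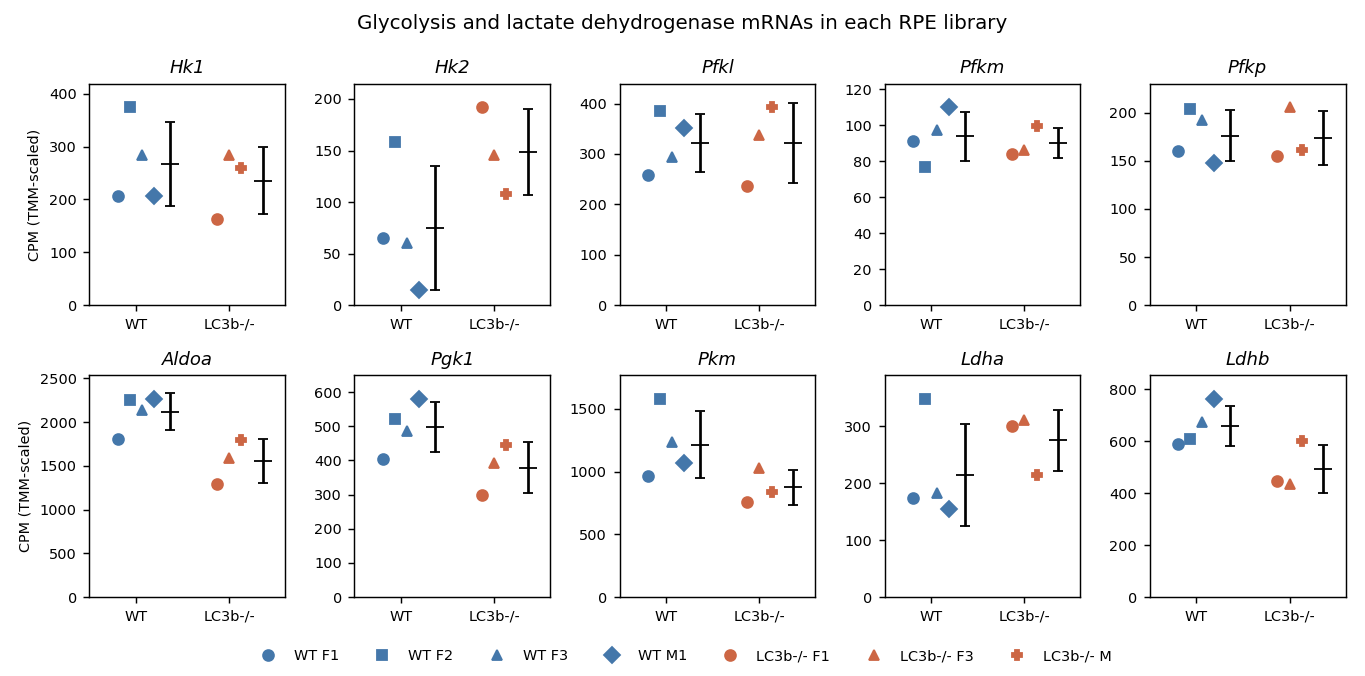
Levels of the 10 enzymes in CPM (TMM-scaled, linear axes from 0) in each of the 7 libraries, WT in blue and LC3b-/- in orange, with a symbol per mouse and the mean ± SD of each group in black. Only for Aldoa do all LC3b-/- mice (1289.8 to 1791 CPM) sit below all WT mice (1811 to 2262 CPM), and WT F2 stands above the other WT mice in Hk1, Hk2, Pkm and Ldha.

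**Figure D2:**
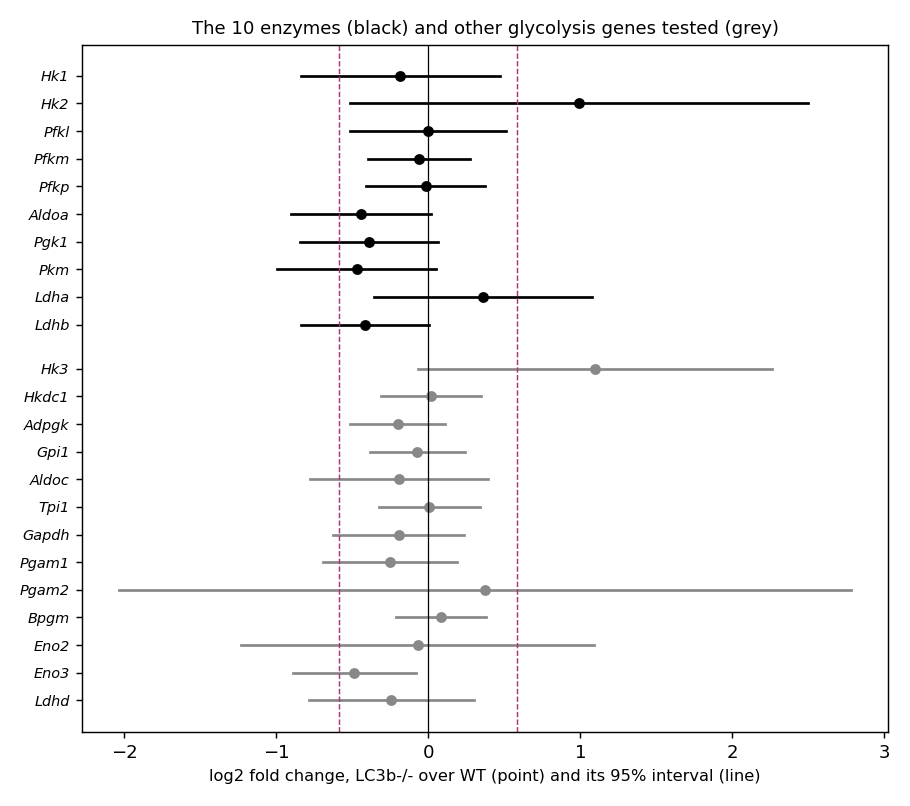
Log2 fold change of LC3b-/- over WT (points) with its 95% interval (lines) from edgeR, for the 10 enzymes (black) and other glycolysis genes tested (grey), with dashed lines at a 1.5-fold change in each direction. All 10 black intervals include 0, and the widest of them is that of Hk2.

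Hexokinase 1, the broadly expressed form that binds to mitochondria (chr10:62104621-62215687 on GRCm39, as for all positions), was the main hexokinase of the tissue. Its level was 206, 374, 283 and 207 CPM in the WT mice, and 164, 283 and 260 CPM in the LC3b-/- mice. The groups overlapped almost throughout, with WT F2 the highest library and LC3b-/- F1 the lowest. The log2 fold change was -0.18 ± 0.28 (SE, edgeR adjusted p = 0.718), which is a fold of 0.880 with a 95% interval of 0.560 to 1.38, and it turned to 0.02 without WT F2 and to 0.02 without LC3b-/- F1.

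Hexokinase 2, the inducible form that is known to be abundant in photoreceptors and in growing cells (chr6:82699740-82751469), varied most. Its level was 65.5, 158, 60.5 and 14.9 CPM in the WT mice, and 192, 146 and 108 CPM in the LC3b-/- mice. All LC3b-/- mice lay above WT F1, F3 and M1, but WT F2 lay above 2 of the 3, so the groups overlapped. The fitted level was 1.99 times that of WT with an interval of 0.699 to 5.65 (log2 fold change 0.99 ± 0.65, edgeR adjusted p = 0.379). Without WT F2, the WT library with the highest sum of photoreceptor markers, it was 1.66 on the log2 scale (unadjusted p = 0.0216, adjusted p = 0.204 in edgeR), and without WT M1, the WT library with the lowest, it was 0.65. LC3b-/- F1, the highest in Hk2, had the lowest photoreceptor sum of all libraries, 99.2 CPM, and the highest sum of ocular surface markers, 18832 CPM. WT M1, the lowest in Hk2, had the highest ocular surface sum of WT, 2148 CPM. The part of other cell types in these levels was not tested.

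The phosphofructokinases differed least between the groups. Pfkl, named for liver (chr10:77818084-77845922), had 258, 385, 294 and 351 CPM in the WT mice, and 236, 337 and 392 CPM in the LC3b-/- mice, with a fold of 0.999 and an interval of 0.699 to 1.43. Pfkm, named for muscle (chr15:97990451-98031417), had 91.4, 76.9, 97.4 and 109.9 CPM in the WT mice and 84.2, 86.2 and 99.8 CPM in the LC3b-/- mice, with a fold of 0.959 and an interval of 0.759 to 1.21. Pfkp, named for platelets (chr13:6629798-6698970), had 160.5, 204, 192 and 147 CPM in WT and 155, 205 and 161 CPM in LC3b-/-, with a fold of 0.987 and an interval of 0.752 to 1.30. In each of the 3 genes the ranges of the groups overlapped, and adjusted p-values were 0.827 to 0.999 in edgeR.

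Aldolase A, the fructose-bisphosphate aldolase of most tissues (chr7:126393822-126399923), had the highest levels of the 10 and was the single enzyme whose groups stood apart. The WT mice held 1811, 2257, 2143 and 2262 CPM, and the LC3b-/- mice held 1289.8, 1590.4 and 1791 CPM. The gap between the lowest WT and the highest LC3b-/- library was small beside the spread within either group. The fold was 0.735 with an interval of 0.535 to 1.01 (log2 fold change -0.44 ± 0.20, unadjusted p = 0.0562, edgeR adjusted p = 0.219), and an exact two-sided permutation test over the 35 splits of the 7 mice gave p = 0.0571. The smallest p that this design allows is 0.0286.

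Phosphoglycerate kinase 1, the enzyme of the first ATP-yielding step (chrX:105230706-105247305), had 404, 521, 486 and 578.96 CPM in the WT mice and 299.6, 393 and 444 CPM in the LC3b-/- mice. LC3b-/- F1 and F3 lay below every WT mouse, and LC3b-/- M above WT F1 only. Its log2 fold change was -0.39 ± 0.19 (edgeR adjusted p = 0.260). Pkm, which makes pyruvate and ATP (chr9:59563364-59586663), had 967, 1578, 1236 and 1070.5 CPM in the WT mice and 757, 1029.6 and 837 CPM in the LC3b-/- mice, where only LC3b-/- F3 exceeded a WT mouse, F1. Its log2 fold change was -0.47 ± 0.22 (edgeR adjusted p = 0.244). The M1 and M2 forms of pyruvate kinase come from Pkm by alternative splicing and are summed in a count per gene.

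Lactate dehydrogenase was present in both subunits, with more Ldhb than Ldha mRNA in every library. Ldha, whose subunit favors lactate production (chr7:46490899-46505061), had 174, 348, 184 and 154 CPM in the WT mice and 301, 312 and 214 CPM in the LC3b-/- mice. The LC3b-/- mice all lay above WT F1, F3 and M1 and all below WT F2. The log2 fold change was 0.36 ± 0.31 (edgeR adjusted p = 0.499), with a fold interval of 0.781 to 2.11, and it was 0.69 without WT F2 (unadjusted p = 0.00882, adjusted p = 0.193 in edgeR). Ldhb, whose subunit favors the use of lactate (chr6:142435672-142454586), had 589, 608, 674 and 762 CPM in the WT mice and 445, 437 and 599 CPM in the LC3b-/- mice. LC3b-/- F1 and F3 lay below all WT mice and LC3b-/- M above WT F1 only. The log2 fold change of Ldhb was -0.41 ± 0.18 (unadjusted p = 0.0529, edgeR adjusted p = 0.212), with a fold interval of 0.560 to 1.00.

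Because both isozymes of a step come from the same library, their ratio does not depend on the scaling between libraries. The count ratio of Ldha to Ldhb was 0.295, 0.572, 0.273 and 0.202 in the WT mice and 0.676, 0.714 and 0.357 in the LC3b-/- mice. WT F2 lay above LC3b-/- M, and the other WT libraries lay below all LC3b-/- libraries. The mean log2 ratio was higher by 0.84 in LC3b-/-, a fold of 1.79, and an exact two-sided permutation test gave p = 0.143 (0.286 after Benjamini-Hochberg adjustment over the 4 ratios computed). The ratio of Hk2 to Hk1 was 0.317, 0.423, 0.214 and 0.0719 in the WT mice and 1.17, 0.514 and 0.416 in the LC3b-/- mice, a difference of 1.56 on the log2 scale (fold of 2.95, exact permutation p = 0.0857, adjusted 0.286). Here the overlap came from LC3b-/- M, just below WT F2, and Hk2 exceeded Hk1 in counts in LC3b-/- F1 alone. Ratios of Pfkp to Pfkl and of Pfkm to Pfkl differed between the groups by -0.00 and -0.04 on the log2 scale, with exact permutation p-values of 1 and 0.914.

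Per kilobase, Hk2 made up 12.0 ± 6.43% of hexokinase 1 and 2 in WT (n = 4) and 26.6 ± 10.996% in LC3b-/- (n = 3), and the share ranged from 3.80% in WT M1 to 39.1% in LC3b-/- F1. Ldha made up 23.7 ± 8.27% of the lactate dehydrogenase pair in WT and 35.3 ± 8.38% in LC3b-/-, from 16.3% in WT M1 to 40.7% in LC3b-/- F3. In the phosphofructokinase step, Pfkl held 54.7 ± 4.22% in WT and 55.0 ± 5.19% in LC3b-/-, Pfkp 28.7 ± 3.75% and 28.8 ± 4.48%, and Pfkm 16.6 ± 3.16% and 16.1 ± 2.11%. The plot of isozyme shares shows the hexokinase and lactate dehydrogenase shares moving between mice while the phosphofructokinase shares moved little.

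**Figure D3:**
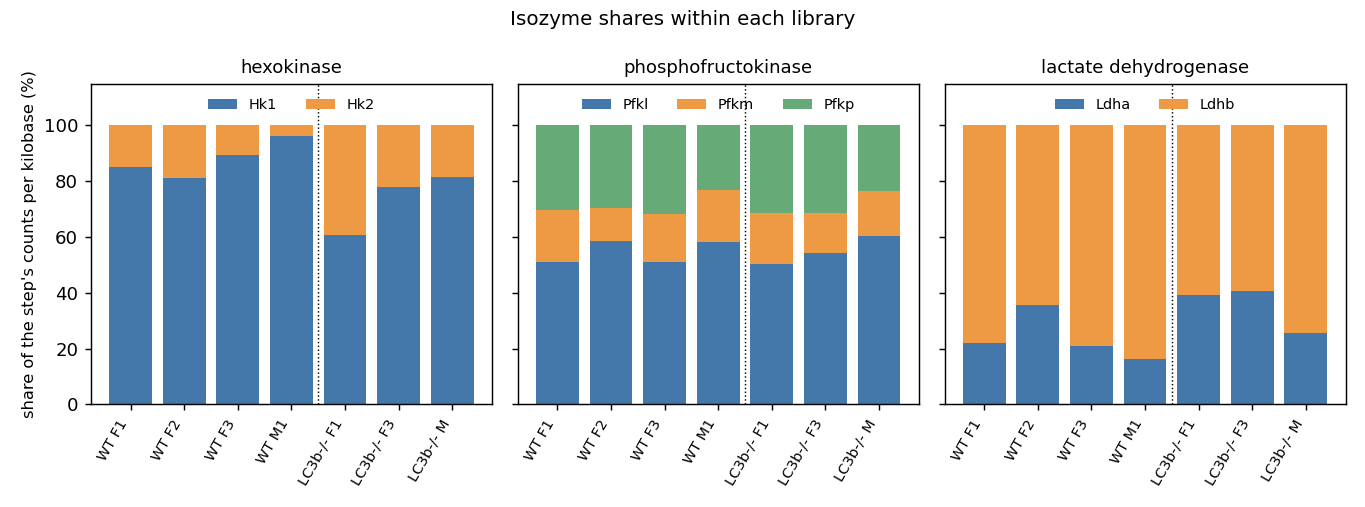
Share of each isozyme in the counts per kilobase of its step (%, linear axis from 0), for hexokinase (left), phosphofructokinase (middle) and lactate dehydrogenase (right), with a stacked bar per library and a dotted line between WT and LC3b-/-. Hk2 runs from 3.80% in WT M1 to 39.1% in LC3b-/- F1 and Ldha from 16.3% to 40.7%, while Pfkl stays between 50.2% and 60.5%.

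No single order of the mice held for all 10 enzymes, although the orders of Aldoa and Pgk1 differed only in the places of WT F1 and LC3b-/- M. WT F2, with the highest photoreceptor sum, was the highest WT library for 6 of the 10 enzymes (Hk1, Hk2, Pfkl, Pfkp, Pkm and Ldha), and WT M1, with the highest RPE sum and the lowest photoreceptor sum of WT, was the highest for the other 4 (Pfkm, Aldoa, Pgk1 and Ldhb) and the lowest for Hk2, Pfkp and Ldha. Among the LC3b-/- mice, F1 was the lowest for 7 enzymes and the highest for Hk2 only. Leaving out both WT F2 and LC3b-/- F1, a choice made after seeing the data, left 0 enzymes called and gave log2 fold changes of 1.45 for Hk2, 0.64 for Ldha, -0.29 for Aldoa, -0.23 for Pgk1, -0.22 for Pkm and -0.39 for Ldhb, with edgeR adjusted p-values of 0.410 to 0.655. Each genotype has a single male, so a dependence of the genotype difference on sex could hardly be detected. The largest interaction of the 10 was that of Hk2, 2.02 ± 0.87 on the log2 scale (unadjusted p = 0.0612, edgeR adjusted p = 0.998).

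**Figure D4:**
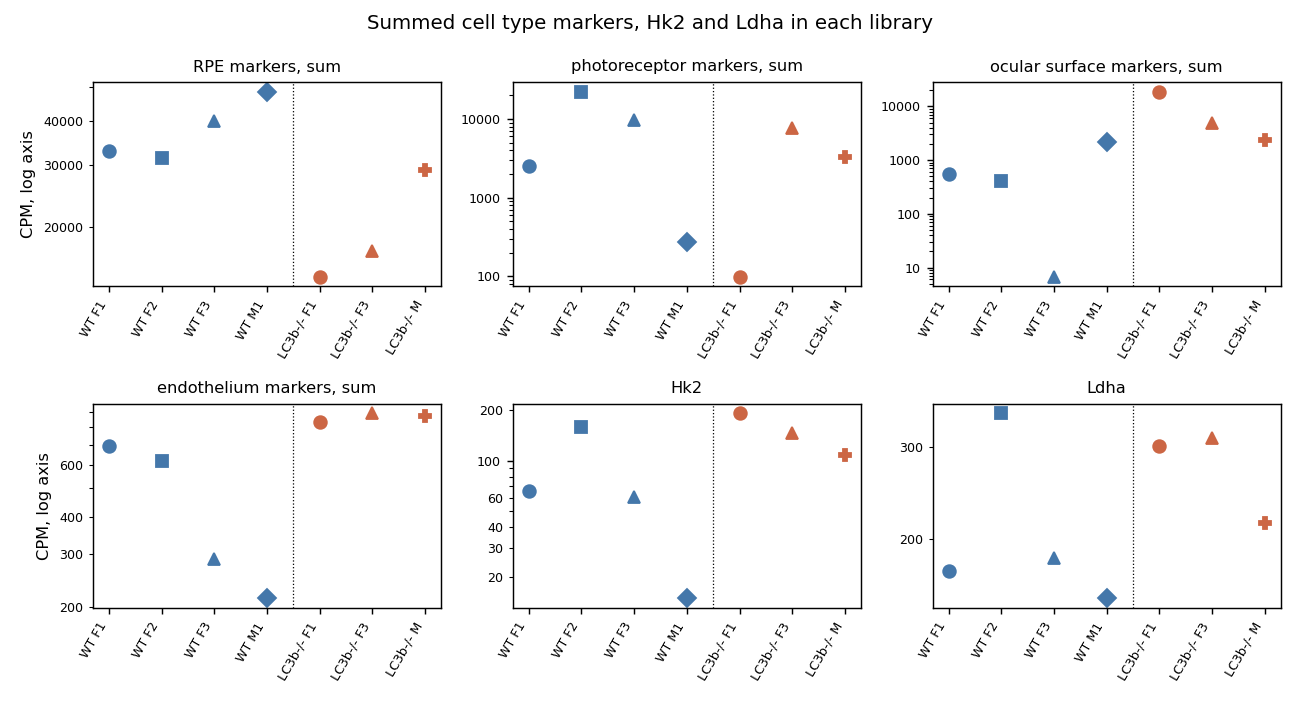
Summed CPM of the RPE, photoreceptor, ocular surface and endothelial markers and the CPM of Hk2 and Ldha in each library (log axes that do not start at 0), with WT in blue, LC3b-/- in orange and a dotted line between them. WT F2 has the highest photoreceptor sum (22317 CPM) and the highest Hk2 and Ldha of WT, and LC3b-/- F1 has the highest ocular surface sum (18832 CPM) and the highest Hk2. WT M1 has the highest ocular surface sum of WT (2148 CPM) and the lowest Hk2 (14.9 CPM).

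To name genes with like profiles, log2 CPM of the 9751 genes with a mean of at least 10 CPM were centered over the 7 libraries and compared by their root mean square difference from each enzyme. Aldoa was closest to Tmx1, a thioredoxin-like protein of the endoplasmic reticulum, at 0.02 log2 units beside a spread of 0.28 for Aldoa itself. Ldhb was closest to Yipf1 (0.03) and then to Mpc1, a subunit of the mitochondrial pyruvate carrier (0.04), beside a spread of 0.27. The closest profiles were Ssx2ip for Pgk1 (0.04), Maged2 for Pfkm (0.04), Ubxn7 for Pfkp (0.05), Elmod2 for Hk1 (0.05) and Tbcc for Pkm (0.08). For Pfkl and Ldha they were less close, Cry1 at 0.14 and Trafd1 at 0.13, beside spreads of 0.26 and 0.43. Hk2 had the largest distances, Exoc3l2 at 0.46 and the Notch ligand Dll4 at 0.51, and also the largest spread, 1.17. The distances were not scaled by the spread of the enzyme.

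Among the other 22 genes of glycolysis and lactate handling, 16 were tested with a median log2 fold change of -0.07, and 2 were called, both of them enolase genes. Eno1 had 1121, 1599.6, 1388 and 1256 CPM in the WT mice and 348, 463 and 465 CPM in the LC3b-/- mice, and fell by 1.66 ± 0.20 on the log2 scale (edgeR adjusted p = 0.0363). Eno1b, a near-identical copy of Eno1 that is annotated as a gene, had 3.54, 3.02, 1.161 and 0.231 CPM in the WT mice and 565, 805 and 742 CPM in the LC3b-/- mice, and rose by 8.46 ± 0.86 (edgeR adjusted p = 0.0143). Of the 100-base windows of the main transcript, 51.9% of Eno1 and 81.1% of Eno1b occur in another gene, so the split between them is uncertain. Summed, an alternative chosen after seeing the data, the pair held 1124, 1603, 1389.6 and 1257 CPM in WT and 913, 1268 and 1207 CPM in LC3b-/-, with a log2 fold change of -0.25 ± 0.20 (edgeR adjusted p = 0.476). Eno1b took 0.0184% to 0.315% of the pair in WT and 61.5% to 63.5% in LC3b-/-. The adjusted p of Eno1 was 0.111 without WT F2, 0.138 without WT F3, 0.102 without WT M1, 0.115 without LC3b-/- F1 and 0.182 without LC3b-/- F3, and that of Eno1b was 0.0805 without WT F2, 0.0762 without WT F3, 0.0526 without LC3b-/- F1 and 0.0797 without LC3b-/- F3, all in edgeR. Genotype and strain background cannot be told apart for this pair.

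**Figure D5:**
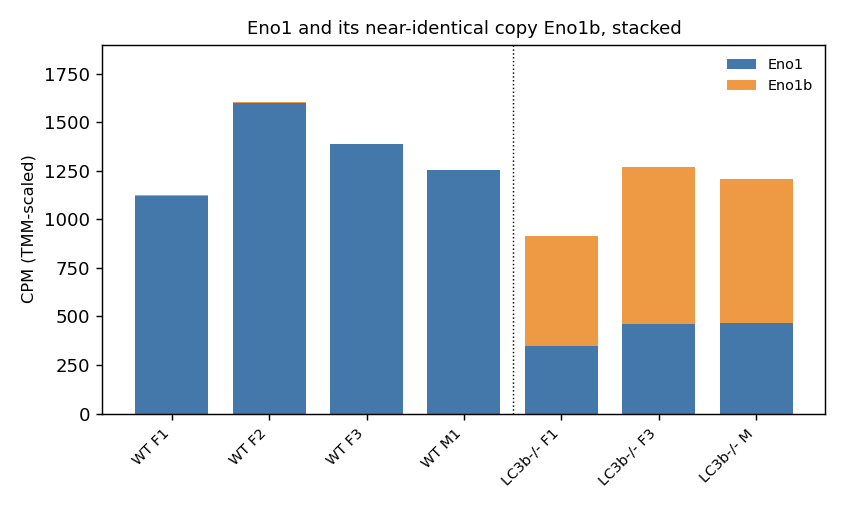
CPM (TMM-scaled, linear axis from 0) assigned to Eno1 (blue) and to its near-identical copy Eno1b (orange), stacked, in each library, with a dotted line between WT and LC3b-/-. Eno1b is below 4 CPM in every WT library and 565 to 805 CPM in the LC3b-/- libraries, while the summed bars of both groups overlap.

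The remaining steps of glycolysis gave no call. Gapdh, a step with many pseudogene copies, since 78.0% of its windows occur in 74 other genes, had 1261 to 1765.5 CPM in WT and 1163 to 1382 CPM in LC3b-/-, a log2 fold change of -0.19 ± 0.18 (edgeR adjusted p = 0.546). Log2 fold changes were -0.07 ± 0.13 for Gpi1, the isomerase after hexokinase, 0.01 ± 0.14 for Tpi1, the triose isomerase, and -0.25 ± 0.19 for Pgam1, the mutase before enolase, which shares 39.2% of its windows with Pgam1-ps2. The muscle enolase Eno3 was at -0.49 ± 0.17 (unadjusted p = 0.0241, edgeR adjusted p = 0.156). Gapdhs, Pgk2, Pklr, Ldhc and Ldhal6b had at most 6 counts in a library and were not tested.

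The 20 regulators of glycolytic flux, 11 glucose and lactate transporters and their partners, 7 pentose phosphate genes, 15 HIF targets outside glycolysis and 4 of 8 gluconeogenesis genes were tested, and edgeR called none of them. At an unadjusted p under 0.05, a level that 24.1% of all genes tested reached, the regulators held 6 higher and 2 lower of 20, with a median log2 fold change of 0.08 in the list. The higher ones were Pfkfb3, which makes the activator of phosphofructokinase (1.33 ± 0.36, edgeR adjusted p = 0.105), Myc (1.37 ± 0.39), Txnip, a brake on glucose uptake (1.06 ± 0.32), Pdp1 (0.81 ± 0.21), Mlxip (0.76 ± 0.27) and Pdk1 (0.36 ± 0.13). The lower ones were the oxygen sensor Egln1 (-0.55 ± 0.12, edgeR adjusted p = 0.0906) and Vhl (-0.47 ± 0.15). The transport list, with a median of -0.41, held 4 of 11 at an unadjusted p under 0.05 (24.1% of all genes), all lower and without overlap between groups (22.3% of all genes): Slc2a1, the glucose transporter GLUT1 (-0.73 ± 0.21), the lactate carriers Slc16a1 (-1.09 ± 0.34) and Slc16a8 (-0.92 ± 0.32), and their chaperone Bsg (-0.72 ± 0.24), with edgeR adjusted p-values of 0.116 to 0.155, in libraries whose RPE marker sums were also lower. Among the 15 HIF targets, 7 were higher and 2 lower at that level, again beside 24.1% of all genes, with a median of 0.23. Egln3 had the largest log2 fold change of them (2.62 ± 0.76, edgeR adjusted p = 0.114). It ran from 6.25 to 30.2 CPM in WT. In the LC3b-/- mice F1, F3 and M it was 175, 77.9 and 20.6 CPM, in the order of their ocular surface sums. The part of other cell types in its level was not tested. Pgd (0.34 ± 0.13) and Rpia (0.68 ± 0.26) of the pentose phosphate pathway (median 0.13) and G6pc3 (-0.33 ± 0.10) of gluconeogenesis (median -0.01) completed the genes at an unadjusted p under 0.05. DESeq2 called 12 genes of all these lists, among them Eno1b, Pfkfb3, Pdp1, Txnip, Myc and Egln3 higher, and Eno1, Slc2a1, Slc16a1, Slc16a8 and Bsg lower.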

How the data were processed

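Libraries of polyadenylated RNA, stranded and read as 100-base single reads, were quantified by the authors with salmon 1.9.0 against GENCODE transcripts of GRCm39 and summed to genes with tximeta 1.16.1. The table deposited by the authors gives these estimated counts as whole numbers without scaling, and each of its 7 columns was used. Of 52740 identifiers, 51721 matched GENCODE vM39, which gave symbols, positions and transcript lengths. In R 4.3.3 with edgeR 4.0.16, genes were filtered with filterByExpr (16990 kept), scaled with TMM and compared between LC3b-/- and WT with the quasi-likelihood test (no covariate, Benjamini-Hochberg over every gene tested). A call needs a fold change of at least 1.5 at an adjusted p under 0.05. SE and 95% intervals come from the same fit. CPM per kilobase uses the length of the canonical transcript. Log2 CPM for profiles and ratios used a prior count of 2. BLAST 2.17.0 located copies (95% identity or more over 100 bases), and windows were matched exactly. The code was tested on simulated data. The alternatives were DESeq2 1.42.0, limma 3.58.1 voom, other scalings, other filters, sex as a covariate, females only, a replicate block, added copies and each library left out.

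The enzymes, the gene lists, the tests and the alternatives were chosen with earlier results of these data known. The named genes are the 10 enzymes, listed pathway genes that were called, had an unadjusted p under 0.05 or were the most abundant of a step, near-identical copies, the closest profiles, and Map1lc3b. Deposited counts give no interval for mapping ambiguity, and intervals cover only the spread between mice. Some items are not reported here.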

Additional observations from a re-analysis of the deposited data

Results flagged for a closer look

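The level of Ldha in WT F2, 348 CPM, stood apart from the other WT mice (154 to 184 CPM): its gap to the nearest of them was 0.846 of the group's range, above Dixon's 95% critical value for 4 samples. This was 1 of 14 groups of WT values examined (10 enzymes and 4 isozyme ratios), and chance flags about 1 in 20 groups. WT F2 also held the highest photoreceptor marker sum, 22317 CPM, and the part of photoreceptor RNA in its Ldha level was not tested.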

How the results depend on the processing

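No enzyme was called under any of the 18 alternatives, and the lowest adjusted p of an enzyme was 0.0754 (Ldhb, sex as a covariate). Hk2 (0.65 to 1.66 on the log2 scale), Ldha (0.23 to 0.78), Aldoa (-0.56 to -0.29), Pgk1 (-0.53 to -0.23), Pkm (-0.63 to -0.22) and Ldhb (-0.58 to -0.34) kept their direction in all 18. Values near 0 did not. With a mouse left out, Hk1 ranged from -0.37 to 0.021 (positive without WT F2 and without LC3b-/- F1), Pfkl from -0.17 to 0.18, Pfkm from -0.15 to 0.022 (positive without WT M1) and Pfkp from -0.18 to 0.059, and without both WT F2 and LC3b-/- F1 they were at 0.23 (Hk1), 0.28 (Pfkl) and 0.15 (Pfkp). Pfkl also turned positive with library size alone (0.052), at least 10 counts in every library (0.013) and the replicate block (0.035), and Pfkp with library size alone (0.034), sex as a covariate (0.0071) and the replicate block (0.021). The balance of Pfkp to Pfkl turned to 0.076 in females only and ranged from -0.13 to 0.20 with a mouse left out, and that of Pfkm to Pfkl turned to 0.077 and ranged from -0.22 to 0.054. Of the other pathway genes, where 2 were called, 12 were called by DESeq2, 1 with at least 10 counts in every library, 0 under the replicate block, 0 without both WT F2 and LC3b-/- F1, 0 with Eno1 and Eno1b summed, and 0 to 3 with a mouse left out. The cause of these changes was not tested.

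Numbers in the mouse names are shared by only 2 pairs, F1 and F3, whose deviations from the group means correlated at 0.146 and 0.243, while WT M1 and LC3b-/- F1 correlated at 0.534, so the numbers were not shown to pair the mice. Under the replicate block, Hk2 was at 1.41 (adjusted p = 0.106) and Ldha at 0.78 (adjusted p = 0.175) in edgeR, and 0 genes of the whole table were called, beside 40 without it and 1810 with DESeq2. With 4 and 3 mice and a biological coefficient of variation of 0.398, the intervals of Hk2 (0.699 to 5.65) and Ldha (0.781 to 2.11) reach past a 1.5-fold increase, and neither reaches a 1.5-fold decrease.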
